A study of Mus musculus with 6 samples.

Results

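Nuclear-encoded respiratory chain subunits are the proteins of oxidative phosphorylation whose genes lie on the nuclear chromosomes, and 42 such genes were described here of 47561 features listed. They were chosen by name, from complex I to complex V with cytochrome c, and all 42 were found. Complexes I to IV pass electrons from NADH and succinate to oxygen, and complexes I, III and IV pump protons across the inner mitochondrial membrane. Complex V, the ATP synthase, uses the proton gradient to make ATP. The remaining subunits of the chain are read from mitochondrial DNA, so a complete chain needs transcripts from both genomes. Blood neutrophils hold few mitochondria and rely largely on glycolysis for ATP, while their mitochondria are known for roles in survival and in chemotaxis.

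The RNA came from neutrophils that were isolated from the peripheral blood (PB) of mice by flow cytometric sorting. The control group held 3 samples from mice labelled as negative control, and the AVP group held 3 samples from mice labelled as given AVP treatment for 30 days. The labels do not expand AVP or name what the controls received, and strain, sex, age, dose and the sorting gate were not given in the sources used here. Whether each library stands for its own mouse is not stated in the labels. The p-values therefore reflect only how far these libraries spread, and that spread may be technical.

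Values were read as FPKM, that is, fragments for each kilobase of a transcript relative to depth, so levels can be compared between genes. From the step between low values, depth was estimated, and by this estimate 10 FPKM would stand for 142 to 168 fragments on each kilobase of transcript. The estimate is approximate. It was sought within a preset range of depths and rested on 65 to 101 short pseudogenes a library. Total FPKM were 755140 to 829725 a library, with 10628 to 12195 features above 0. All 8 neutrophil markers were listed above 0 except Camp, which was at 0 in 3 libraries, and their summed level was 165212 to 193599 FPKM. The highest marker had a mean of 110859 FPKM and the median marker 595 FPKM, so the sum says little about the lower ones. Singly, their log2 differences, AVP minus control, ran from -1.89 to 1.44. At an unadjusted p under 0.05 by limma 2 were higher and 1 lower, 37.5% beside 8.47% of all genes tested. None passed after adjustment (lowest adjusted p = 0.0659 by limma). RNA of other blood cells was present and differed between libraries. Summed red cell markers were at 102661 to 154851 FPKM in controls and 119303 to 242554 FPKM after AVP, and B cell markers at 4893 to 7745 and 1258 to 4839 FPKM. Summed monocyte markers stood at 490.3 to 1075 and 190.1 to 1009.8 FPKM. T and NK cell markers reached 157 FPKM in AVP replicate 3 and at most 15.1 FPKM elsewhere, and basophil markers reached 303 FPKM in AVP replicate 1 and at most 3.78 FPKM elsewhere. Summed platelet markers stood at 99.5 to 199.3 FPKM in controls and 79.8 to 212.0 FPKM after AVP. Subunit transcripts are not particular to neutrophils. What part other cells, those behind the red cell RNA included, had in the values below was not tested. In bulk RNA, fewer cells of a type and less RNA per cell cannot be told apart.

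The promoters of respiratory chain genes are classically described as sites for NRF1, a factor named for this role, and for ETS family factors such as GABP. RefSeq promoter sequences of GRCm38.p6 matched 31 of the 42 genes. In the 250 bases before the start, the NRF1 core CATGCGC, on either strand, lay in 5 of 31 (16.1%), against 3.68% of 27025 genes with a promoter and 7.01% of the 6147 that were tested here. The ETS core CCGGAAG lay in 5 of 31 (16.1%), against 7.83% and 17.4%, so its share among these genes was close to that among tested genes. The YY1 core AAGATGGC lay in 1 (3.23%), Atp5j, against 1.83% and 2.81%. These are matches of letters, not sites. The sequences, 5′ to 3′ along each gene with matches in capitals, are 4 of the 5 promoters with the NRF1 core and that of Ndufa5, the gene with the smallest p between AVP and control, which held none of the 3 motifs.
Ndufa6 (chr15:82354292-82354541, minus strand): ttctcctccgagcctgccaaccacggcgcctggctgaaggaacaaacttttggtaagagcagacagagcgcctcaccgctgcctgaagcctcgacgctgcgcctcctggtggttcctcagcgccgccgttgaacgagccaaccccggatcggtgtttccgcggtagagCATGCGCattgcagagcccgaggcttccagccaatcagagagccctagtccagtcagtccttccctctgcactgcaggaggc
Sdhb (chr4:140961021-140961270, plus strand): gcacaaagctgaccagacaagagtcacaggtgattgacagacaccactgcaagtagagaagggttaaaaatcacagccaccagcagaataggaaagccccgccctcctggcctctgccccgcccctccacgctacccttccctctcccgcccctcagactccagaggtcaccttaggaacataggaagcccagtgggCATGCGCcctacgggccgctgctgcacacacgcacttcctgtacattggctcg
Cycs (chr6:50566570-50566819, minus strand): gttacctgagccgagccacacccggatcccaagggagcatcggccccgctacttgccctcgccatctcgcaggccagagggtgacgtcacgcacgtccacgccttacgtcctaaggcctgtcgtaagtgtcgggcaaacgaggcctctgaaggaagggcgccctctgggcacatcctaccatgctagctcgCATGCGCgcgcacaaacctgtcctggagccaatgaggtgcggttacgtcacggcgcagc
Cox6a1 (chr5:115348959-115349208, minus strand): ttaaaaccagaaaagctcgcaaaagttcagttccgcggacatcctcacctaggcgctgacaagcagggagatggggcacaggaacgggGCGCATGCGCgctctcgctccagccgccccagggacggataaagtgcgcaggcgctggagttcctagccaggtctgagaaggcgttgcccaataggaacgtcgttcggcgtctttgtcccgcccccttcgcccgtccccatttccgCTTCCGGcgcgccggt
Ndufa5 (chr6:24527691-24527940, minus strand): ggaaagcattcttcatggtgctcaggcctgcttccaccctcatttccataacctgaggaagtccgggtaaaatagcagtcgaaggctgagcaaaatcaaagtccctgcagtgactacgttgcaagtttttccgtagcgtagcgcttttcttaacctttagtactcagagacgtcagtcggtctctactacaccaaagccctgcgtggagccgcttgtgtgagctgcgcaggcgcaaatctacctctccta
In Cox6a1 the NRF1 cores on both strands overlapped into a palindrome that began 162 bases before the start, and the ETS core, read on the opposite strand, began 16 bases before it. The single NRF1 cores of Ndufa6, Sdhb and Cycs began 82, 53 and 59 bases before the start. The other gene with an NRF1 core was Cox5b.

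The 42 genes differed widely in level, and among them the level went with the complex. The 9 genes of complex IV, cytochrome c oxidase, had mean levels of 116 to 898 FPKM (median 269 FPKM), the highest median among the listed genes of each complex. Complex I had a median of 56.9 FPKM over 15 genes, complex V one of 58.0 FPKM over 7, complex II one of 41.9 FPKM over 4 and complex III one of 32.5 FPKM over 6. Cycs, which encodes the electron carrier cytochrome c, had a mean of 17.7 FPKM. The 36 other nuclear subunit genes described below, with means of 11.5 to 684 FPKM, are not in these medians. The order of the complexes thus holds for the 42 genes only. The highest gene was Cox8a (898 FPKM), a small membrane subunit of complex IV, and the lowest was Ndufs1 (5.30 FPKM), the largest iron-sulfur subunit of complex I. Across the 42 genes the level fell with the length of the longest annotated transcript (Spearman rho = -0.78). The genes share the same 6 libraries, so this is a description.

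**Figure D1:**
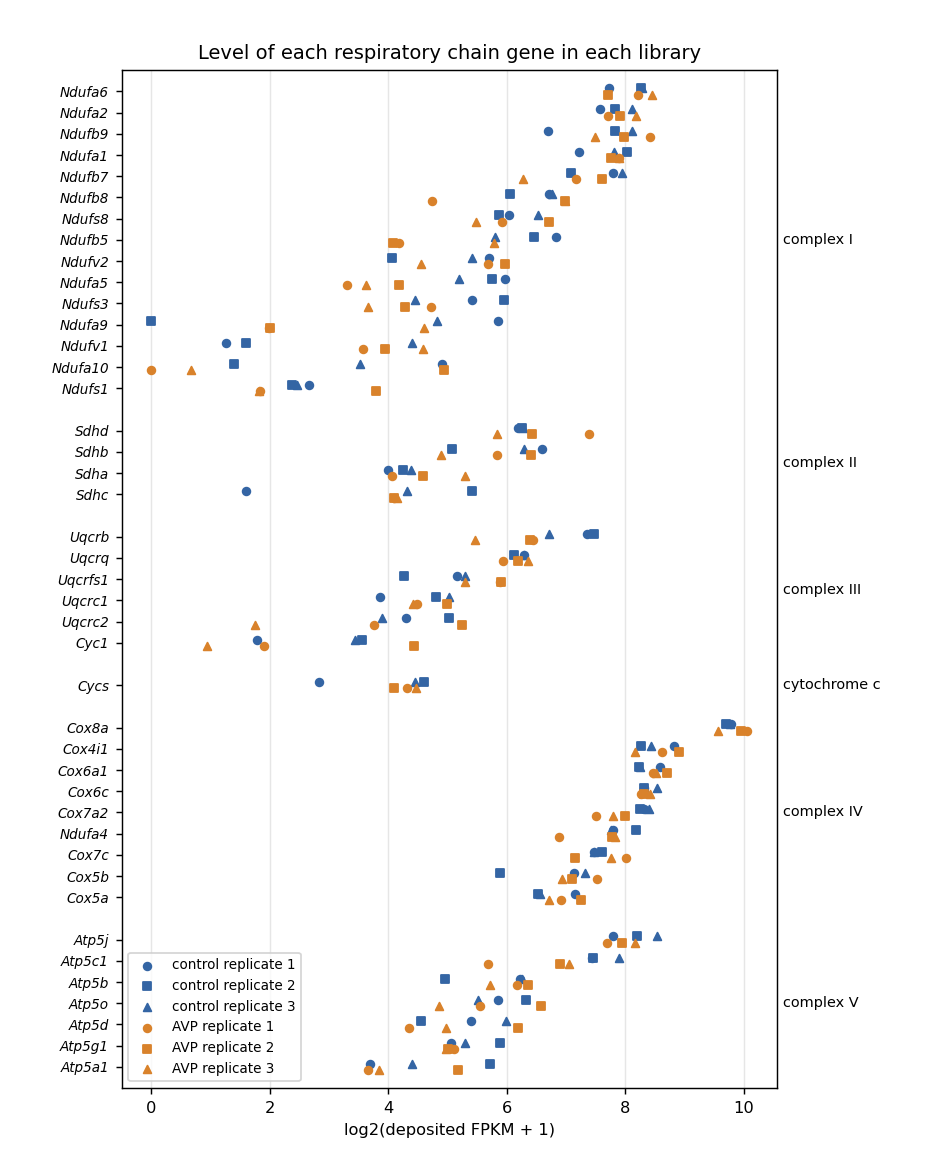
Level of each of the 42 genes in each library as log2(deposited FPKM + 1) on the horizontal axis, with genes in rows by complex and sorted by mean. Blue marks are control and orange marks AVP libraries, and the symbol gives the replicate. Complex IV genes lie to the right with narrow spreads, while Ndufa9 and Ndufa10 run from 0 to 56.6 and 29.7 FPKM.

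Set against controls, AVP libraries answer whether neutrophils from treated mice carried more or less of these transcripts. None of the 42 genes passed, and none of all 8523 genes tested did either (percent called 0.0, limma, Benjamini-Hochberg adjusted p under 0.05). All 42 passed the filter on low values, reaching 1 FPKM in at least 4 libraries, 39 of them in all 6. Fitted differences lay above 0 for 22 genes and below 0 for 20. Their median was 0.01 on the log2 scale, beside -0.04 over all genes tested. Adjusted p ranged from 0.206 to 0.994. At an unadjusted p under 0.05, 0 members were higher and 5 lower, where 4.69% and 3.78% of all genes were (722 genes or 8.47% in both directions). After scaling, the groups did not overlap for 4 members that were lower and 2 that were higher, 14.3% of them beside 14.0% of all genes, which is near the background. Of all genes 6.55% were lower and 7.4% higher in this way. On the deposited FPKM 5 members were lower without overlap and 0 higher, beside 7.63% and 6.39% of all genes. All 5 genes at an unadjusted p under 0.05 were on the lower side: Ndufa5, Ndufb5, Uqcrb, Cox7a2 and Atp5c1.

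**Figure D2:**
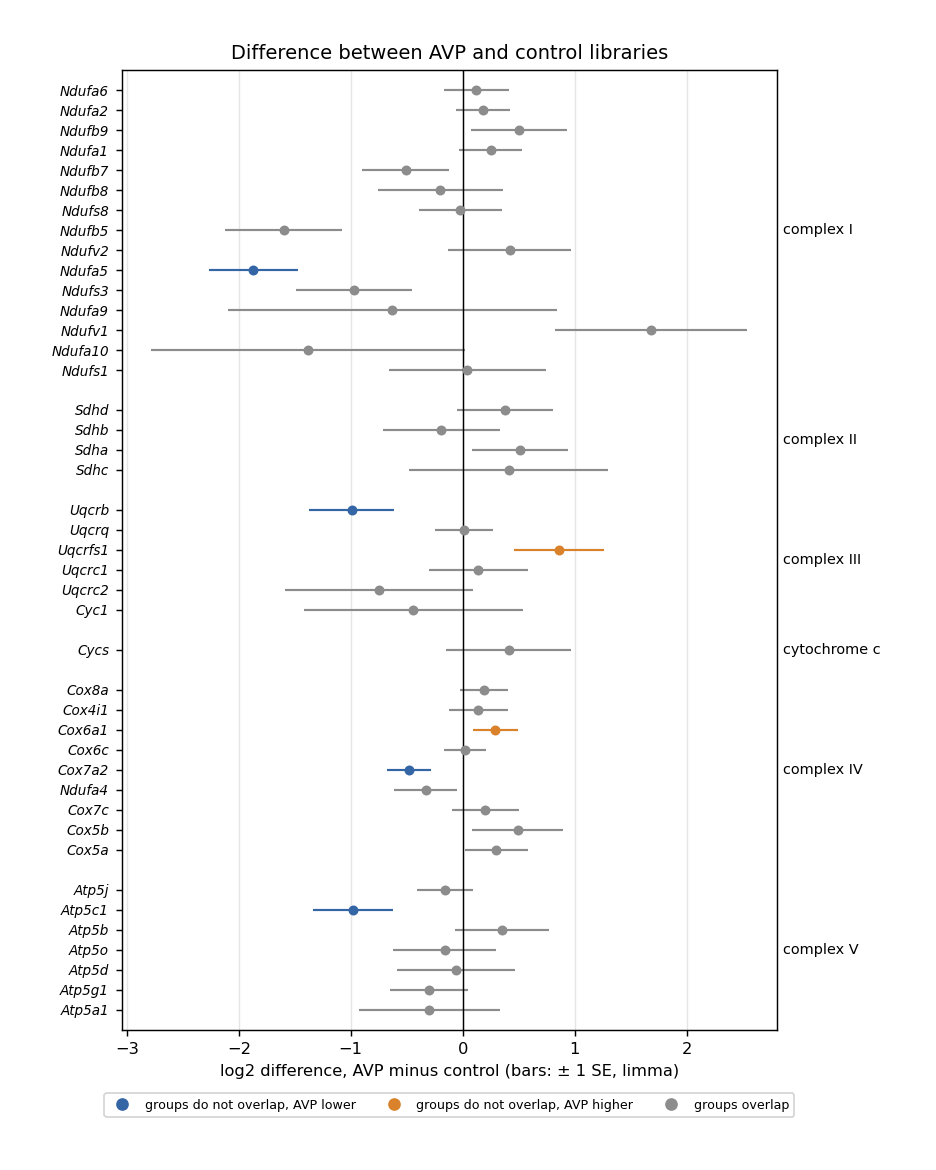
Fitted log2 difference, AVP minus control, for each of the 42 genes, with bars of 1 standard error from limma. Blue marks 4 genes whose AVP libraries all lay below the controls after scaling, orange 2 genes whose AVP libraries all lay above, and grey the others; none passed the adjusted threshold.

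In complex I, which takes electrons from NADH, Ndufa5 had the smallest p of the 42 genes. It encodes an accessory subunit of the arm that reaches into the matrix, and the protein-coding gene (identifier 68202) lies on chromosome 6 from 24518662 to 24527690 in GRCm38. Ndufa5 stood at 61.7, 52.9 and 35.6 FPKM in controls against 8.81, 17.0 and 11.2 FPKM after AVP. The highest AVP library was below the lowest control library. The means were 50.0 ± 13.3 and 12.4 ± 4.23 FPKM (SD, n = 3), and the fitted log2 difference of -1.87 (SE 0.40) did not pass over all genes (adjusted p = 0.206 by limma, 0.125 to 0.609 under the alternatives). Ndufb5, a subunit of the membrane arm, was at 113, 86.9 and 54.6 FPKM in controls against 17.2, 15.9 and 53.9 FPKM after AVP. AVP replicate 3 stood at the level of control replicate 3 and the other AVP libraries far below, with a log2 difference of -1.60 (SE 0.52, adjusted p = 0.401 by limma). A GENCODE transcript of Ndufb5 shares sequence with one of Mrpl47, a mitochondrial ribosomal protein gene, but no overlap of their RefSeq gene spans was found. The annotation used for counting is not given, so whether fragments could be counted for either gene is not known. Mrpl47 was at 1.98, 61.9 and 17.2 FPKM in controls against 0, 0 and 15.7 FPKM after AVP.

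Of the core subunits of complex I, Ndufs1 and Ndufv1 had the lowest means, 5.30 and 12.0 FPKM, and Ndufs8 the highest, 69.7 FPKM. Ndufv1, the subunit that binds NADH, was at 1.39, 2.03 and 20.1 FPKM in controls against 10.9, 14.3 and 22.9 FPKM after AVP. Control replicate 3 lay within the AVP values, and the log2 difference of 1.68 (SE 0.86) had an adjusted p of 0.671 by limma. The difference was 2.66 without control replicate 3, where the groups did not overlap (adjusted p = 0.367 by limma), and 1.10 without control replicate 1. Ndufs1 was at 5.28, 4.16 and 4.51 FPKM in controls against 2.56, 12.8 and 2.50 FPKM after AVP, with AVP replicate 2 above and the other AVP libraries below all controls. Ndufs3, an iron-sulfur arm subunit needed early in assembly, was at 41.7, 60.5 and 20.7 FPKM in controls against 25.3, 18.3 and 11.6 FPKM after AVP. Here the groups overlapped through control replicate 3. Ndufs8 and Ndufv2, which carry iron-sulfur clusters, ranged over 43.5 to 103 and 15.6 to 61.5 FPKM, with control and AVP values interleaved.

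The accessory subunits of complex I ran from a mean of 11.9 FPKM for Ndufa10 to 280.2 FPKM for Ndufa6. Ndufa6 was at 210.2, 306 and 311 FPKM in controls against 296, 208 and 349 FPKM after AVP. Ndufa1, Ndufa2 and Ndufb9 had mean levels of 220.1, 238 and 229 FPKM and Ndufb7 one of 168 FPKM, and in all 4 the groups overlapped. Ndufb8 was even in 5 libraries (65.7 to 126 FPKM) and at 25.5 FPKM in AVP replicate 1. Ndufa9, a subunit at the junction of the arms, was at 56.6, 0 and 27.3 FPKM in controls against 2.94, 3.00 and 23.2 FPKM after AVP. Ndufa10 was at 28.8, 1.62 and 10.5 FPKM in controls against 0, 29.7 and 0.58 FPKM after AVP. These 2 genes had the widest spread of the 42, an SD within groups of 2.43 and 2.25 on the log2 scale. A value of 0 may be a failed estimate, so both are said only to be listed at 0.

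Complex II, succinate dehydrogenase, links the citric acid cycle to the chain and is built of nuclear subunits only. Its catalytic flavoprotein gene Sdha, the smallest p of the complex, was at 14.9, 18.01 and 19.9 FPKM in controls against 15.6, 23.0 and 38.0 FPKM after AVP. The groups overlapped through AVP replicate 1, and the log2 difference was 0.51 (SE 0.43, adjusted p = 0.811 by limma). It was 0.20 without AVP replicate 3 and 0.75, with groups that did not overlap, without AVP replicate 1. Sdhb, the iron-sulfur subunit, ranged from 28.5 to 95.4 FPKM without order by group. Of the membrane anchors, Sdhd was at 72.0, 75.5 and 76.6 FPKM in controls against 166, 84.4 and 56.0 FPKM after AVP. Sdhc was at 2.02, 41.4 and 18.9 FPKM in controls against 16.1, 16.1 and 16.7 FPKM after AVP. The 2 anchors thus had opposite spreads, Sdhd being even among controls and Sdhc among AVP libraries. The median log2 difference of the 4 genes was 0.40, and it was 0.14 without AVP replicate 1 and 0.23 without control replicate 1.

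Complex III, the cytochrome bc1 complex, held one of the 4 lower and one of the 2 higher genes. Uqcrb, which encodes a small subunit of the quinone-binding region (identifier 67530, chromosome 13 from 66900576 to 66905350), was at 162, 175 and 103 FPKM in controls against 85.9, 83.0 and 42.8 FPKM after AVP. All AVP libraries lay below all controls, at means of 147 ± 38.2 and 70.6 ± 24.1 FPKM (SD, n = 3). The log2 difference was -0.99 (SE 0.38, adjusted p = 0.499 by limma). With its near-identical copies, of which Gm2962 was the highest, Uqcrb summed to 166, 198 and 119 FPKM in controls and 87.0, 84.5 and 64.8 FPKM after AVP, again without overlap. Uqcrfs1, the Rieske iron-sulfur protein (identifier 66694, chromosome 13 from 30540312 to 30545316), was at 34.8, 18.2 and 38.1 FPKM in controls against 58.0, 58.7 and 38.0 FPKM after AVP. The groups touched at 38.1 and 38.0 FPKM as deposited and separated only after scaling, with a log2 difference of 0.86 (SE 0.40, adjusted p = 0.616 by limma), and one of 0.55 without control replicate 2. Uqcrq, another small subunit, was the most even gene of the complex at 60.04 to 80.6 FPKM. The core proteins Uqcrc1 and Uqcrc2 ranged over 13.5 to 31.6 and 2.37 to 36.6 FPKM. Cyc1, the cytochrome c1 gene and the lowest of the complex, was at 2.43, 10.7 and 9.77 FPKM in controls against 2.71, 20.5 and 0.918 FPKM after AVP.

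Cycs carries electrons from complex III to complex IV and triggers apoptosis when released from mitochondria. Cycs was at 6.09, 23.1 and 20.8 FPKM in controls against 19.0, 16.1 and 21.005 FPKM after AVP, with 1 low control library and otherwise little spread. It has 4 near-identical copies among annotated transcripts, of which Gm10108 was the highest. The copies summed to 12.6, 41.0 and 41.0 FPKM in controls and 27.8, 23.9 and 27.6 FPKM after AVP, above Cycs itself in every library, so the level of Cycs is uncertain.

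Complex IV passes the electrons to oxygen, and its genes had a median SD within groups of 0.29 on the log2 scale. All 9 had means above 100 FPKM, and all genes tested at that level had a median SD of 0.32. Cox8a was at 882, 833 and 869 FPKM in controls against 1061, 992 and 753 FPKM after AVP. Cox6c, a subunit on the outside of the core, was at 317, 317 and 371 FPKM in controls against 305, 316 and 339 FPKM after AVP. Neither separated the groups, and their log2 differences were 0.19 (SE 0.21) and 0.02 (SE 0.19). Cox4i1, the regulatory subunit that binds ATP, ranged from 285 to 477 FPKM. Cox5a, the lowest gene of the complex, was at 140.5, 91.0 and 93.2 FPKM in controls against 120.1, 150.5 and 103 FPKM after AVP. Cox5b and Cox7c ranged over 57.8 to 183 and 140.4 to 257 FPKM. Ndufa4, long counted in complex I and now known as a complex IV subunit, stood at 116 FPKM in AVP replicate 1 and at 214 to 288 FPKM in the other 5 libraries.

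Cox7a2, the form of subunit VIIa found in most tissues (identifier 12866, chromosome 9 from 79755241 to 79771422), was at 317, 303 and 338 FPKM in controls against 180.0, 253 and 221 FPKM after AVP. The groups did not overlap, at means of 319 ± 17.4 and 218 ± 36.5 FPKM (SD, n = 3). This was the smallest of the 4 lower differences, -0.48 on the log2 scale (SE 0.20, adjusted p = 0.567 by limma), in one of the most even genes, with an SD within groups of 0.11. Its annotated span overlaps that of Tmem30a, a lipid flippase subunit, by 2482 bases. Tmem30a was at 58.4, 51.7 and 31.8 FPKM in controls against 22.9, 31.8 and 12.5 FPKM after AVP. No source used here states a count by strand, so fragments from the shared span cannot be told apart. Cox6a1, the common form of subunit VIa (identifier 12861, chromosome 5 from 115345652 to 115348958), was at 384, 297 and 302 FPKM in controls against 353, 416 and 367 FPKM after AVP. Control replicate 1 exceeded 2 AVP libraries as deposited, and the groups separated only after scaling (log2 difference 0.29, SE 0.20, adjusted p = 0.771 by limma). Without control replicate 2 or control replicate 3 they overlapped after scaling too.

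In complex V, 6 of 7 genes had a fitted difference below 0, with a median of -0.16. The median was -0.52 without AVP replicate 2, -0.36 without control replicate 1 or control replicate 3, -0.10 without AVP replicate 1 or AVP replicate 3, and -0.07 without control replicate 2. Atp5c1, the gamma subunit that turns inside the catalytic head (identifier 11949, chromosome 2 from 10056030 to 10080510), was at 173, 174 and 236 FPKM in controls against 50.3, 117 and 131 FPKM after AVP. All AVP libraries lay below all controls, at means of 194 ± 36.1 and 99.5 ± 43.2 FPKM (SD, n = 3). The log2 difference was -0.98 (SE 0.36, adjusted p = 0.473 by limma), and -0.61 without AVP replicate 1, the lowest library. The catalytic subunits alpha and beta did not separate. Atp5a1 (alpha), the lowest of the complex, was at 12.0, 51.5 and 20.1 FPKM in controls against 11.6, 35.1 and 13.3 FPKM after AVP. Atp5b (beta) was at 73.4, 30.0 and 75.5 FPKM in controls against 70.9, 80.4 and 51.4 FPKM after AVP. Although alpha and beta assemble in equal number, control replicate 2 was the highest library for Atp5a1 and the lowest for Atp5b.

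Of the other complex V genes, Atp5j, a subunit of the stalk and the highest of the complex, was at 221, 293 and 369 FPKM in controls against 205, 246 and 286 FPKM after AVP. Its span overlaps that of Gabpa, an ETS factor gene, by 967 bases, and Gabpa was at 0.927 to 13.4 FPKM. Atp5g1, which encodes subunit c of the rotating ring, was nearly constant after AVP at 33.6, 31.2 and 30.2 FPKM, and at 32.2, 57.7 and 38.2 FPKM in controls. Atp5d and Atp5o, subunits of the central and peripheral stalk, ranged over 19.4 to 72.1 and 27.8 to 94.4 FPKM. In both, AVP replicate 2 was the highest library.

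The spread between replicates set what could be seen, and it went with the level. The 17 genes with a mean of at least 100 FPKM had a median SD within groups of 0.33 on the log2 scale, the 17 between 20 and 100 FPKM one of 0.62, and the 8 under 20 FPKM one of 1.34. Over all genes tested the same ranges gave 0.32, 0.57 and 0.87. Under 20 FPKM the levels were not alike. The 8 members had means of 5.30 to 19.3 FPKM, while those of all genes tested went down to 0.59 FPKM. Across the 42 genes the SD was smaller at higher mean levels (Spearman rho = -0.75, a description over genes of the same 6 libraries). In 13 genes the highest library was under 2 times the lowest, and in 6 it was over 10 times or the lowest was listed at 0. These were Ndufa9, Ndufa10, Ndufv1, Sdhc, Uqcrc2 and Cyc1, and the library that was lowest differed between them.

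**Figure D3:**
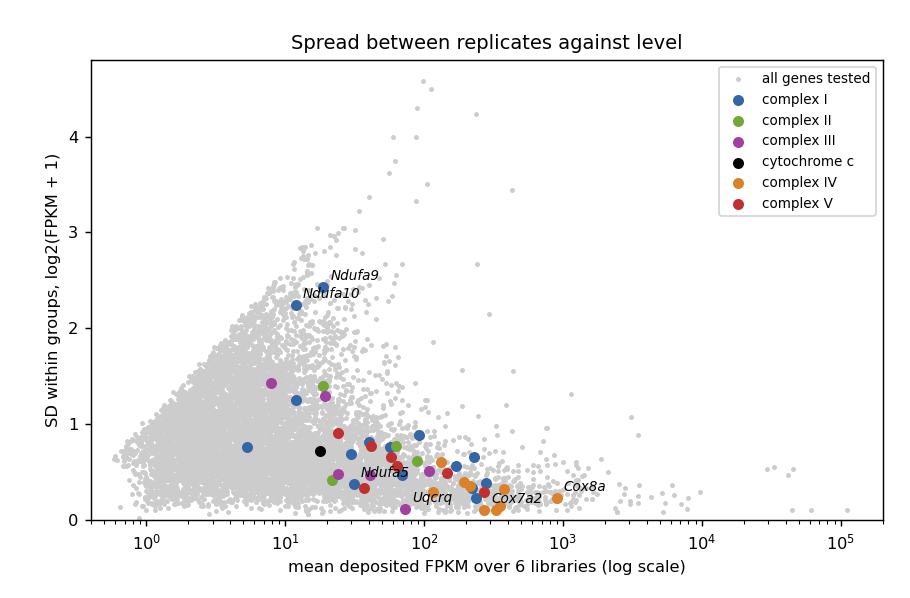
Standard deviation within groups of log2(FPKM + 1) against the mean deposited FPKM (log scale), for all genes tested (grey) and the 42 genes coloured by complex. Complex IV genes lie low at the right, and Ndufa9 and Ndufa10 lie highest among the 42, at 2.43 and 2.25.

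Summed over the 42 genes, subunit transcripts took 0.733%, 0.665% and 0.749% of the total FPKM in controls and 0.644%, 0.735% and 0.626% after AVP. The means were 0.715% ± 0.0445 and 0.669% ± 0.0584 (SD, n = 3), and the groups overlapped through AVP replicate 2. The order of libraries depended on the total used. With haemoglobin, immunoglobulin, mitochondrially encoded genes, S100a8 and S100a9 left out of the total, the shares were 1.253%, 1.248% and 1.280% in controls. After AVP they were 1.266%, 1.204% and 1.105%, and there the groups overlapped through AVP replicate 1. Of the full total, the 9 complex IV genes took 0.364% ± 0.0357 in controls and 0.36% ± 0.0312 after AVP (SD, n = 3). That was about as much as the rest of the 42 genes together. The 36 other nuclear subunit genes outside this list took 0.847% ± 0.0188 and 0.764% ± 0.0445 (SD, n = 3), so whole complexes are not ranked here. The listed complex V genes took 0.0914% ± 0.0135 and 0.0699% ± 0.0165 (SD, n = 3), with overlapping groups. Gene by gene on the scaled values rather than the deposited ones, AVP replicate 3 was the lowest library for 12 of the 42 genes and control replicate 1 for 10. Control replicate 3 was lowest for 1.

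The subunits read from mitochondrial DNA varied more between libraries. All 13 had fitted differences below 0, with a median of -0.69, although none passed (limma, adjusted p 0.369 to 0.83). Of all 8523 genes tested 4459 were below 0. The 13 genes share the same 6 libraries and do not count as 13 separate results. They took 1.44%, 2.01% and 1.28% of the total FPKM in controls and 0.539%, 0.844% and 1.496% after AVP, so AVP replicate 3 stood among the controls. The ratio of the nuclear sum to the mitochondrially encoded sum was 0.508, 0.331 and 0.587 in controls and 1.196, 0.871 and 0.419 in AVP replicates 1 to 3. AVP replicates 1 and 2 lay above all controls in this ratio and AVP replicate 3 within them. Within the mitochondrial list the groups did not overlap for 2 of 13 genes, ND3 and ND4L, or 15.4%, near the 14.0% of all genes tested. ND3 was at 252, 447 and 161 FPKM in controls against 62.7, 74.8 and 152 FPKM after AVP.

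**Figure D4:**
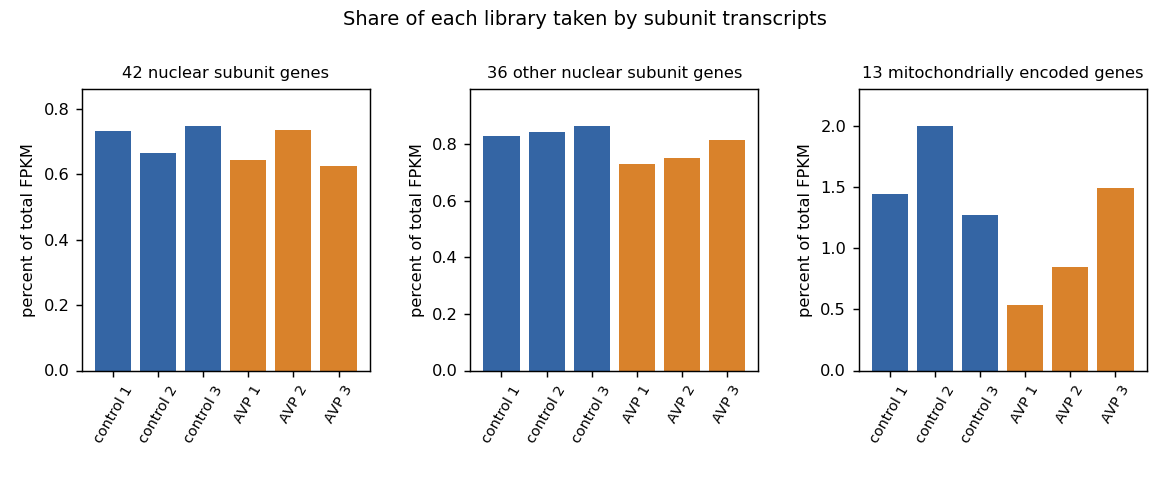
Percent of the total FPKM of each library taken by the 42 nuclear genes described here (left), by 36 other nuclear subunit genes (middle) and by 13 mitochondrially encoded subunit genes (right), with control libraries in blue and AVP libraries in orange. The left panel stays between 0.626% and 0.749% and the middle panel between 0.729% and 0.866%, while the right panel ranges from 0.539% to 2.01%.

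The 36 other nuclear subunit genes were all tested and none passed. Their median difference was -0.12, and 3 (8.33%) had groups that did not overlap, fewer than the 14.0% of all genes tested. These 3 were higher after AVP, as were 7.4% of all genes. At an unadjusted p under 0.05 by limma, the same 3 were higher and 1 was lower, beside 4.69% and 3.78% of all genes. The lower gene was Ndufc2, with a log2 difference of -1.12 and overlapping groups. Cox6b1, a complex IV subunit facing the space between the membranes, was at 539.8, 569 and 619 FPKM in controls against 849.9, 734 and 792 FPKM after AVP. Ndufs6, which binds zinc in complex I, was at 59.0, 48.3 and 67.0 FPKM in controls against 95.4, 74.8 and 109 FPKM after AVP. Ndufa8 was at 60.005, 0.822 and 21.9 FPKM in controls against 67.4, 85.8 and 80.5 FPKM after AVP. The 9 tissue-restricted isoforms, such as those of muscle, heart and testis, had no member past the filter, and 7 were listed at 0 in all 6 libraries. Cox6b2 reached 13.1 FPKM in AVP replicate 2 and was at 0 elsewhere.

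Of 47 assembly factors, 27 passed the filter on low values and none passed the test. Ndufaf3, an assembly factor of complex I, was at 19.3, 17.6 and 14.2 FPKM in controls against 0, 5.57 and 0 FPKM after AVP. Sdhaf4, which matures complex II, was at 2.50, 7.97 and 0 FPKM in controls against 9.03, 19.3 and 38.7 FPKM after AVP. Of 16 regulators of mitochondrial biogenesis, 10 passed the filter and none the test. Among these 10 the groups did not overlap for 4 that were lower and 1 that was higher, beside 6.55% and 7.4% of all genes. Together that is 50.0%, beside 14.0% of all genes. Tfb2m, one of the 4, reached 1 FPKM only in the controls, so it passed the filter because it was high there and had to differ. Tfam, which packages and transcribes mitochondrial DNA, was at 10.7, 13.7 and 8.10 FPKM in controls against 0, 7.198 and 0.146 FPKM after AVP. Like Ndufaf3, Tfam reached 1 FPKM in every control but not in every AVP library, so for both, passing the filter rested on the controls. Tfb2m, a subunit of the mitochondrial transcription machinery, was at 3.46, 20.9 and 14.5 FPKM in controls against 0.137, 0 and 0.249 FPKM after AVP. Polg2, a subunit of the mitochondrial DNA polymerase, was at 0, 2.99 and 1.41 FPKM in controls against 34.9, 4.54 and 9.58 FPKM after AVP. Nrf1 itself was at 3.22, 8.20 and 2.32 FPKM in controls against 6.11, 16.3 and 10.5 FPKM after AVP, with overlapping groups.

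Among 11 carriers, channels and modulators of respiration none passed. Ucp2, an inner membrane carrier that can lower coupling, was at 209.6, 151 and 209.3 FPKM in controls against 316, 429 and 246 FPKM after AVP, all AVP libraries above all controls. Slc25a4, an ADP/ATP carrier, was at 5.55, 39.9 and 30.3 FPKM in controls and listed at 0 in all 3 AVP libraries, and it too passed the filter through the controls alone. Slc25a5, the more abundant ADP/ATP carrier here, was at 103 to 272 FPKM with overlapping groups. Of 16 citric acid cycle genes 15 were tested and none passed, with 10 below 0 and a median of -0.43. Mdh2, mitochondrial malate dehydrogenase, was at 159, 105 and 126 FPKM in controls against 25.1, 101 and 101 FPKM after AVP.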

How the data were processed

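RNA sequencing of sorted blood neutrophils gave 6 libraries, 3 control and 3 AVP, grouped by the labels. Per the submitters' processing notes the tools were HISAT2 (2.1), featureCounts (1.6.4), cutadapt (1.16.5), bcl2fastq (2.19) and DESeq2 (2.11.40.6), on mm10, with no role given. The values deposited by the authors are taken as FPKM per gene, a unit inferred from the values, since the file headers name only the library. Their gene annotation is not given in the sources used here.

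Filtering kept 8523 genes that reached 1 FPKM in 3 or more libraries. Scaling used a trimmed mean of log ratios (trimming 30% of the ratios and 5% of the levels from both ends), and log2(FPKM + 1) went into limma (3.58.1, under R 4.3.3) with an intensity trend, Benjamini-Hochberg adjustment over all genes and a threshold of 0.05. A pseudocount of 1 understates the change of low genes. Printed FPKM are the deposited values. The smallest two-sided exact permutation p for 3 against 3 is 0.1. On simulated data for AVP against control (8057 genes), changes were placed solely in genes whose mean exceeded about 20 FPKM. The fit recovered 4 of 67 genes with a log2 change of 1 and 34 of 67 with one of 2. It recovered 58 of 66 with one of 4, and made 3 false calls. Recovery was not tested under 20 FPKM, where 6248 of the 8523 tested genes and 8 of the 42 lie. The median SD within groups there was 0.87 and 1.34, at unlike levels within that range.

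Near-identical copies were transcripts of other genes with at least 95% identity over at least 151 bases (BLAST 2.17.0, GENCODE M21), and 10 of the 42 genes had one. Gene positions and promoters came from RefSeq (GRCm38.p6). Sums, motif matches and plots were made with Python 3.11.15. Genes named with every value were the highest, lowest and smallest-p gene of each complex and those whose groups did not overlap. Others were added after their values were seen, among them the genes with a library near 0, Ndufs3 and Nrf1. The members and lists were chosen with earlier results of these data known.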

Additional observations from a re-analysis of the deposited data

How the results depend on the processing

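None of the 42 genes passed the adjusted threshold under any of 15 alternatives (other scalings, pseudocounts of 0.1 and 5, no filter or one of 10 FPKM, no intensity trend, a replicate block, and each library left out). Over all genes, 0 were called lower throughout. The count called higher was 3 with a pseudocount of 5, 11 with the 10 FPKM filter and 1 with no intensity trend, and 0 to 4 with each library left out (4 without control replicate 3). With the replicate block 0 genes were called, and same-numbered libraries did not deviate together (correlations -0.0423 to 0.0205). With the block, 4 members were lower and 1, Ndufv1, higher at an unadjusted p under 0.05, against 5 and 0. With no intensity trend 2 were lower.

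The median difference of the 42 genes ranged from -0.05 to 0.19 with each library left out, and was -0.07 on the deposited scale. The complex III median, -0.22, was 0.22 without AVP replicate 3, -0.54 without AVP replicate 2 and -0.52 without control replicate 1. The complex IV median, 0.19, was 0.03 without AVP replicate 1, 0.05 without control replicate 2, 0.33 without AVP replicate 3 and 0.10 on the deposited scale. As deposited, 5 members were lower without overlap, Ndufb5 being added, and 0 higher. Higher members without overlap numbered 1 with median-of-ratios scaling (7.33% of all genes) and 7 without AVP replicate 3 (13.8% of all genes), where 2 AVP libraries remain. Ndufa5, Ndufb5, Uqcrb, Cox7a2, Atp5c1, Uqcrfs1, Cox6a1, Ndufv1 and Sdha kept their direction under all alternatives. Adjusted p ranged from 0.28 to 0.733 for Ndufb5, 0.414 to 0.785 for Uqcrb, 0.457 to 0.805 for Cox7a2 and 0.4 to 0.733 for Atp5c1. The difference between groups in the share of total FPKM ranged from -0.08 to -0.0255 percentage points with each library left out. At the approximate depth estimated, 10 FPKM would stand for about 142 fragments per kilobase or more, and what part depth has in the spread was not tested.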
